A study of Homo sapiens with 12 samples.

Results

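The TRIM (tripartite motif) family of ubiquitin ligases was examined across 12 RNA-seq libraries of THP-1, a widely used cell line grown from a monocytic leukemia. Members were the protein-coding genes with a symbol made of TRIM and a number that had at least 10 summed counts over the 12 libraries. Of 67 symbols of this form in the table, 52 had that many, among 62588 Ensembl genes in all. The libraries formed 4 groups of 3: untreated control cells, cells that received chlorquinaldol at 20 μM (CQ20) or 50 μM (CQ50), and cells that received 3'-3'-cGAMP at 1 μg/mL as a positive control for antiviral signalling. Each treatment lasted 8 h. As a cyclic dinucleotide, 3'-3'-cGAMP activates STING, the adaptor of cytosolic DNA sensing, while chlorquinaldol is a halogenated hydroxyquinoline antiseptic. No vehicle for the untreated cells is given in the sources used here, so an effect of vehicle and of treatment cannot be told apart. Nothing says whether the replicates of a group were separate cultures, so p-values measure only the spread between these libraries, which may be technical.

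A typical TRIM protein carries a RING domain that recruits the ubiquitin-conjugating enzyme, then B-box zinc fingers and a coiled coil through which it dimerises. The C-terminal end picks the target: a PRY-SPRY domain in most antiviral members, NHL repeats in TRIM2, TRIM3, TRIM32 and TRIM71, and a PHD finger with a bromodomain in the chromatin members TRIM24, TRIM28, TRIM33 and TRIM66. Many PRY-SPRY members are induced by type I interferon in monocytes and either bind viral components directly, as TRIM5 binds retroviral capsids, or ubiquitinate sensors and adaptors of innate signalling, as TRIM25 does with RIG-I.

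Library totals ran from 17620929 to 19222607 estimated counts, and libraries of a group correlated at 0.9856 to 0.9912. All 10 monocytic markers were detected in every group, with a summed level of 1672 to 1713 CPM (counts scaled to library size and TMM factor) in the control libraries, 1681 to 1890 with cGAMP, 1416 to 1513 in CQ20 and 1466 to 1725 in CQ50. Summed markers of T and NK cells (8.64 to 15.9 CPM over all libraries), B cells (2.07 to 7.19 CPM), epithelium (0.164 to 0.98 CPM), fibroblasts (0.214 to 0.924 CPM) and erythroid cells (0 to 0.274 CPM) were low, and the B-cell marker MS4A1 was at 0 in all 4 groups. The lower monocytic sum in CQ20 and the higher B-cell sum there moved with the drug. In CQ50 the B-cell sum was also higher, at 4.325 to 4.929 CPM against 2.562 to 2.898 in control libraries. The T and NK sum was 8.64 to 10.35 CPM in control libraries, 10.48 to 11.95 in CQ20 and 12.3 to 15.9 in CQ50. The monocytic sum hides changes both ways. At an adjusted p below 0.05 (edgeR), 3 of its 10 markers rose and 5 fell in CQ20. In CQ50 4 rose and 4 fell. The part of these marker changes in the TRIM results was not tested.

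The sequences shown are the 250 bases before the RefSeq start of 5 members that rose with cGAMP and of TRIM2, the member with the largest rise with chlorquinaldol, because each holds a match to the interferon-stimulated response element GAAANNGAAA, searched on both strands (GRCh38.p14, gene strand, start to the right). Capitals mark the matches. The windows are TRIM5 at chr11:5685075-5685324 (minus strand), TRIM34 at chr11:5624751-5625000 (plus), TRIM69 at chr15:44736278-44736527 (plus), TRIM14 at chr9:98119223-98119472 (minus), TRIM26 at chr6:30213407-30213656 (minus) and TRIM2 at chr4:153151913-153152162 (plus).
TRIM5: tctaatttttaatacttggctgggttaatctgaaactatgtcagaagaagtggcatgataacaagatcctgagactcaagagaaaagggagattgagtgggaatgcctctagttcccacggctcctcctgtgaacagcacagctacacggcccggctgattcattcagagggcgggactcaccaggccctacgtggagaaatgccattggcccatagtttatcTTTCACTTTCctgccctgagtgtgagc
TRIM34: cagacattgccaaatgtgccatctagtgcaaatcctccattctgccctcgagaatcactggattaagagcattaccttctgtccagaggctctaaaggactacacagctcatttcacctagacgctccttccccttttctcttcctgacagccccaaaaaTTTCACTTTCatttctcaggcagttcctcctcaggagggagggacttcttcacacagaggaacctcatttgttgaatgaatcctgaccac
TRIM69: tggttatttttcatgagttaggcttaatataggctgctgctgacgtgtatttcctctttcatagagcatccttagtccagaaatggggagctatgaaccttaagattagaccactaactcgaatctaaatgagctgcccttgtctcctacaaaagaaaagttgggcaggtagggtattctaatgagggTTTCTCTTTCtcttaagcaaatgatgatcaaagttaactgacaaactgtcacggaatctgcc
TRIM14: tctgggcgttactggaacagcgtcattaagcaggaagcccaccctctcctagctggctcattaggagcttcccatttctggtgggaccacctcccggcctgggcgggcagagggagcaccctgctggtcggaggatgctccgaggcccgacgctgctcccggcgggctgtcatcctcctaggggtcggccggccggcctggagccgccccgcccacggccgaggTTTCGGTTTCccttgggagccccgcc
TRIM26: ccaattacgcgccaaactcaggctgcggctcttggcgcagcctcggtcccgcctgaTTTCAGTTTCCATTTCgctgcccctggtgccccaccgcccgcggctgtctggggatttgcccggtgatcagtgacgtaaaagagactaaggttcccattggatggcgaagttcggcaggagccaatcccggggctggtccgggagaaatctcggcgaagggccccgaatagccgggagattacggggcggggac
TRIM2: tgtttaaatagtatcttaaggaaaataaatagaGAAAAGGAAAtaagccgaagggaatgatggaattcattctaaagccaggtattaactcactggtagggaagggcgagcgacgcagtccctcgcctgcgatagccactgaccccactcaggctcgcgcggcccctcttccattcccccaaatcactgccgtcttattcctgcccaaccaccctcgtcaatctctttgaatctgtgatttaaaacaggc

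The match lay 26 bases before the start in TRIM14, 27 in TRIM5, 62 in TRIM69 and 90 in TRIM34, counted from its first base on the gene strand. TRIM5 and TRIM34, neighbours on chromosome 11, held the same 10 letters, TTTCACTTTC. TRIM26 held 2 overlapping matches 194 and 188 bases before its start, and TRIM2 held its match 217 bases before the start of the first of its 6 listed windows. Across the RefSeq table, windows of 250 bases before to 50 bases after a start held the motif in 3.574% of 35116 cases, and in 15% of the 60 windows of the 42 members that had an entry. TRIM16, TRIM44 and TRIM21 held the other matches, in TRIM21 after the start. TRIM25, TRIM31, TRIM38 and TRIM56 rose with cGAMP and had an entry without a match. In turn, TRIM2 and TRIM16 held a match and were not called with cGAMP. TRIM4, TRIM8, TRIM11, TRIM13, TRIM22, TRIM24, TRIM27, TRIM28, TRIM35 and TRIM45 had no entry. The gamma-activated sequence TTCNNNGAA was in 11.667% of member windows and 7.657% of all, and the antioxidant response element TGACNNNGC in 13.333% and 13.347%. The metal response element was in 15% and 12.069% as TGCACNC, and in 26.667% and 19.968% as TGCGCNC. The hypoxia response element was in 30% and 21.409% as ACGTG, and in 35% and 36.542% as GCGTG. TRIM2 windows also held matches to TTCNNNGAA, TGACNNNGC, TGCGCNC and GCGTG. These are letter matches, not measured binding. The TRIM5, TRIM34 and TRIM69 windows lie inside the longer gene spans of GENCODE 29, and the TRIM26 window overlaps the edge of its span.

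As a share of all counts the family was small: 0.142 to 0.156% in the control libraries, 0.276 to 0.284% with cGAMP, 0.139 to 0.156% in CQ20 and 0.158 to 0.174% in CQ50. Its summed level was 1444 ± 43.6 CPM (SD, n = 3, as for all means that follow) in control cells, 2820.0 ± 91.3 with cGAMP, 1444 ± 62.8 in CQ20 and 1758 ± 101 in CQ50. The cGAMP and CQ50 libraries all lay above the control libraries (1398 to 1485 CPM), while those of CQ20 (1396 to 1515 CPM) overlapped them. In bulk RNA, a change in RNA per cell and a change in the number of cells of a type cannot be told apart.

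**Figure D1:**
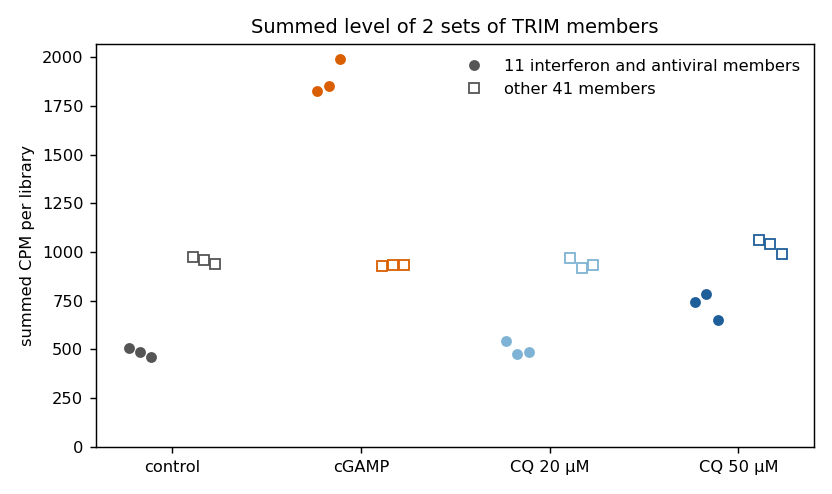
Summed CPM of the interferon and antiviral members and of the other 41 members, by group; filled circles and open squares are libraries, and the axis starts at 0. The interferon and antiviral members went from 459 to 509 CPM in control libraries to 1824 to 1991 with cGAMP, while the other members stayed between 918 and 1060 CPM in all 12 libraries.

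Most of the rise of the family sum lay in the 11 interferon and antiviral members: their sum was 459 to 509 CPM in the control libraries, 1824 to 1991 with cGAMP, 477 to 544 in CQ20 and 654 to 786 in CQ50. The other 41 members summed to 939 to 976 CPM in control libraries, 928 to 934 with cGAMP, 918 to 971 in CQ20 and 988 to 1060 in CQ50. TRIM22 alone held 17% of the family's CPM after cGAMP. Compared per transcript length, TRIM28 had the highest mean in control cells at 236 FPKM (a fragment level scaled to transcript length and depth), ahead of TRIM25 at 46.1 FPKM and TRIM13 at 34.3 FPKM. TRIM22 moved from rank 18 to rank 1 with cGAMP at 193 FPKM, where its libraries (174 to 211 FPKM) overlapped those of TRIM28 (167 to 190 FPKM). It was at rank 5 in CQ20 and rank 3 in CQ50, while TRIM14 went from rank 5 in control and cGAMP cells to 18 in CQ20 and 19 in CQ50.

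Of the 52 members, 45 had enough counts to be tested. The test was edgeR's quasi-likelihood F-test with Benjamini-Hochberg adjustment over 16628 genes, called at an adjusted p below 0.05, and every single-gene p below is this adjusted p. With cGAMP 12 members rose and 8 fell, 44.4% of those tested, where 23.3% of all tested genes were called. In CQ20 15 rose and 11 fell, 57.8% against 55.1% of all genes, and in CQ50 21 rose and 12 fell, 73.3% against 66.9%. The shares called with the drug were thus near those of all genes. The 8 falls with cGAMP depended on the analysis: 2 were called by DESeq2 and 5 with RLE scaling (12 rises against 5 falls). Leaving out any 1 of the 12 libraries gave 0 to 4 falls, with 0 without control replicate 1 or cGAMP replicate 1. A fit of the control and cGAMP libraries alone gave 9 falls. Of the 12 rises with cGAMP 10 were called in all 22 alternatives, as were 17 of the 26 calls in CQ20 and 21 of the 33 in CQ50. The fall count in CQ20 went from 11 to 7 without CQ20 replicate 1 or CQ20 replicate 2. On the FPKM scale the CQ50 split was 13 rises against 12 falls in place of 21 against 12, with the median of all genes shifted by -0.124 log2 at a pseudocount of 1. By direction, the share of all genes that rose was 11.6% with cGAMP, 27.1% in CQ20 and 32.2% in CQ50, and the share that fell was 11.8%, 28% and 34.7%. The members' median log2 change was -0.13 with cGAMP (all genes -0.05), 0.14 in CQ20 (all genes -0.0016) and 0.28 in CQ50 (all genes -0.03). The 3 comparisons share their control libraries.

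Counted by libraries alone, 14 members with cGAMP had all 3 treated libraries above all 3 control libraries and 12 had all below, where 18.6% and 25.4% of all genes did so. In CQ20 the counts were 17 and 12 (30.4% and 31.5% of all genes), in CQ50 20 and 13 (33.8% and 36.8%), for CQ50 against CQ20 14 and 5 (22.1% and 22.8%) and for CQ50 against cGAMP 16 and 19 (33.1% and 36.3%). Called changes of at least 2-fold were 10 up and 0 down with cGAMP, where 3.71% and 0.625% of all genes moved so far, 4 up and 2 down in CQ20 (8.77% and 6.18% of all genes), and 11 up and 4 down in CQ50 (14.4% and 12.8%). The 10 rises with cGAMP were 9 interferon and antiviral members and TRIM31.

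**Figure D2:**
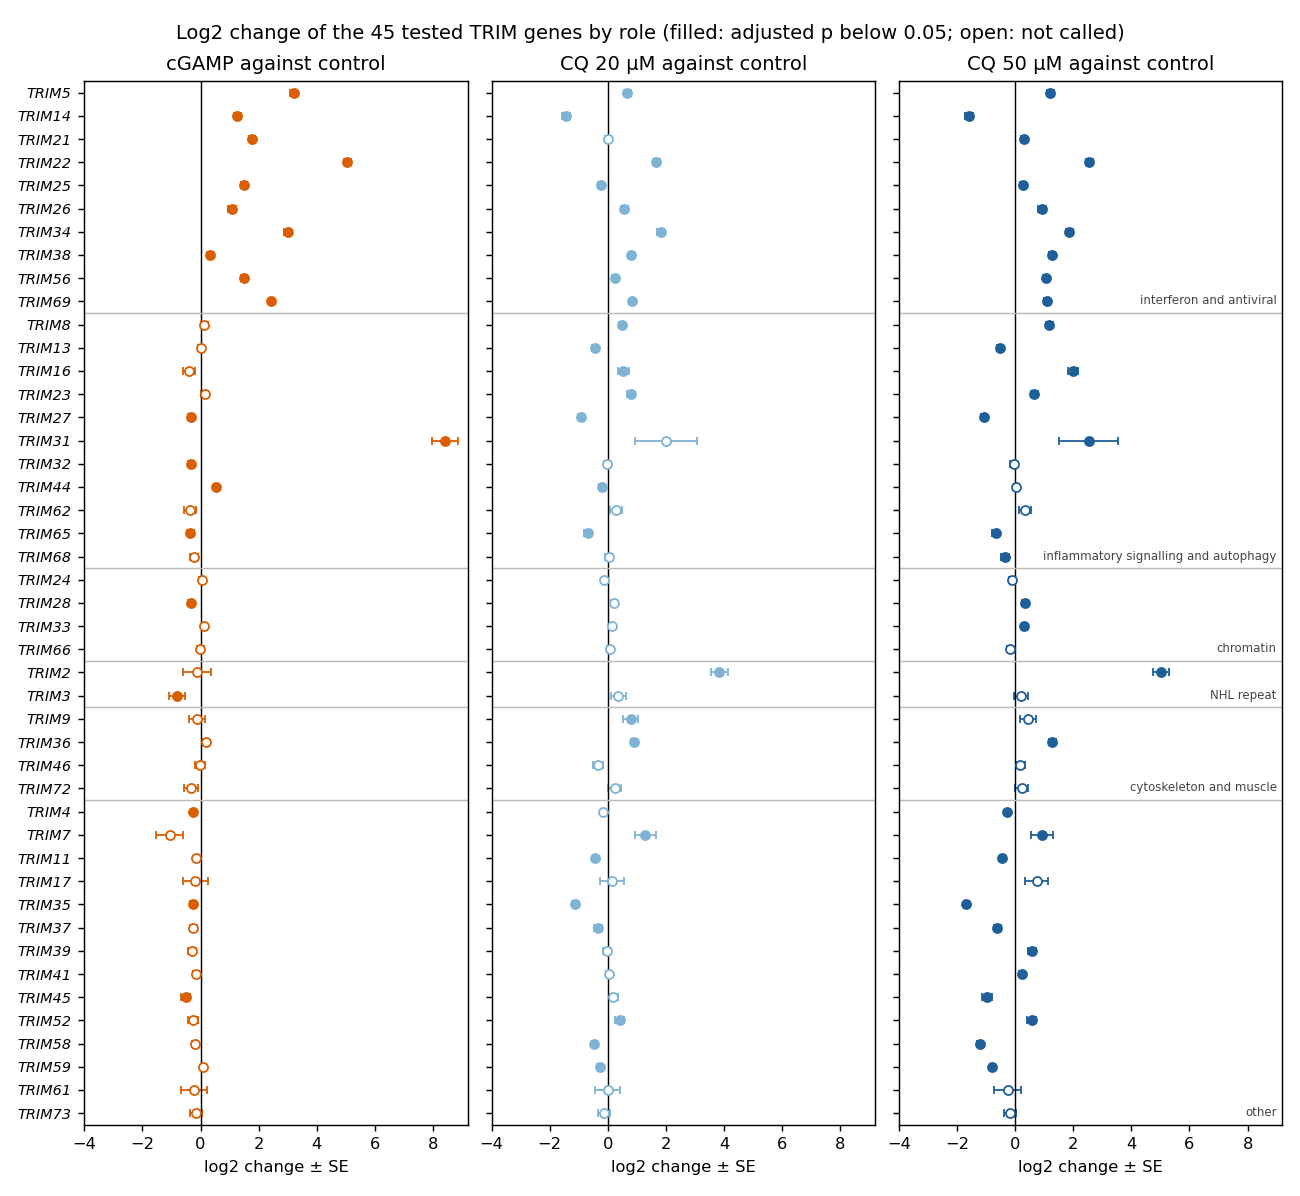
Log2 change against control for the tested members, grouped by role, for cGAMP, CQ20 and CQ50; bars are the SE, filled points passed the test and open points did not. The interferon and antiviral members sat to the right with cGAMP, from 0.33 to 5.05, and ran from -1.58 to 2.54 in CQ50.

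All 10 tested interferon and antiviral members rose with cGAMP, 9 of them, all but TRIM38, at least 2-fold. The median log2 change was 1.63. In CQ20 7 rose, 2 fell and TRIM21 was not called, with a median of 0.62. In CQ50 9 rose and TRIM14 fell, with a median of 1.07. The shares called were 100% with cGAMP, 90% in CQ20 and 100% in CQ50, against 23.3%, 55.1% and 66.9% of all genes. By direction, 11.6%, 27.1% and 32.2% of all genes rose. The list was chosen with earlier results of these data known, so its shares are a description. TRIM6, the eleventh, was not tested: it had 3, 2, 2 and 4 counts in the control, cGAMP, CQ20 and CQ50 groups.

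TRIM22, an interferon-induced antiviral ligase (ENSG00000132274, chr11:5689689-5737089, plus strand, GENCODE 29 on GRCh38), had the largest change of this list with cGAMP and in CQ50 against control, while in CQ20 TRIM34 changed more. Its 3 libraries had 15.8, 14.1 and 13.4 CPM in control cells, 485, 454 and 502 CPM with cGAMP, 49.0, 44.1 and 44.4 CPM in CQ20, and 91.1, 94.4 and 67.4 CPM in CQ50. The 4 groups did not overlap, in the order control, CQ20, CQ50, cGAMP. The log2 change was 5.05 ± 0.13 (SE) with cGAMP (33.2-fold, adjusted p = 8.87e-15), 1.67 ± 0.12 in CQ20 (3.17-fold, 6e-09) and 2.54 ± 0.12 in CQ50 (5.83-fold, 9.01e-12). CQ50 exceeded CQ20 by 0.88 (adjusted p = 8.32e-06) and the log2 difference of CQ50 from cGAMP was -2.51 (3.92e-12).

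TRIM5, which recognises retroviral capsids (chr11:5663557-5938619, minus strand), and TRIM34, its close relative (chr11:5619764-5644398, plus), lie beside TRIM22. The longest TRIM5 model spans TRIM22 on the other strand without sharing exon bases. TRIM5 had 13.3, 11.4 and 12.5 CPM in control cells, 109.8, 114 and 119 with cGAMP, 23.0, 18.9 and 17.4 in CQ20, and 28.8, 31.6 and 25.7 in CQ50, again with no overlap between groups. Its log2 change was 3.20 ± 0.11 with cGAMP (9.21-fold, 3.25e-13), 0.67 ± 0.11 in CQ20 (7.14e-05) and 1.21 ± 0.11 in CQ50 (2.31-fold, 3.21e-08). For TRIM34 the doses did not separate. It had 6.58, 5.53 and 5.23 CPM in control cells, 44.2, 45.7 and 49.1 with cGAMP, 21.7, 20.4 and 19.3 in CQ20, and 21.7, 23.5 and 18.3 in CQ50, so the drug groups lay between the others and overlapped each other. The log2 change was 3.00 ± 0.11 with cGAMP (1.47e-12), 1.82 ± 0.12 in CQ20 (1.81e-09) and 1.87 ± 0.12 in CQ50 (3.17e-10). The step from CQ20 to CQ50 was not called (adjusted p = 0.744). Of the exon bases of TRIM34, 83.01% are shared with the TRIM6-TRIM34 readthrough, which had 0 counts, so how reads were divided between them matters to these levels.

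TRIM69, on chromosome 15 (chr15:44728988-44767829, plus), is an interferon-induced member reported to act against several viruses. It had 13.3, 13.0 and 13.9 CPM in control cells, 69.5, 72.3 and 75.8 with cGAMP, 25.7, 24.4 and 21.9 in CQ20, and 28.5, 30.6 and 25.7 in CQ50. All treated libraries exceeded all control libraries. The log2 change was 2.44 ± 0.09 (5.42-fold, 1.04e-12), 0.84 ± 0.09 (8.11e-07) and 1.08 ± 0.09 (2.11-fold, 1.54e-08) in that order.

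**Figure D3:**
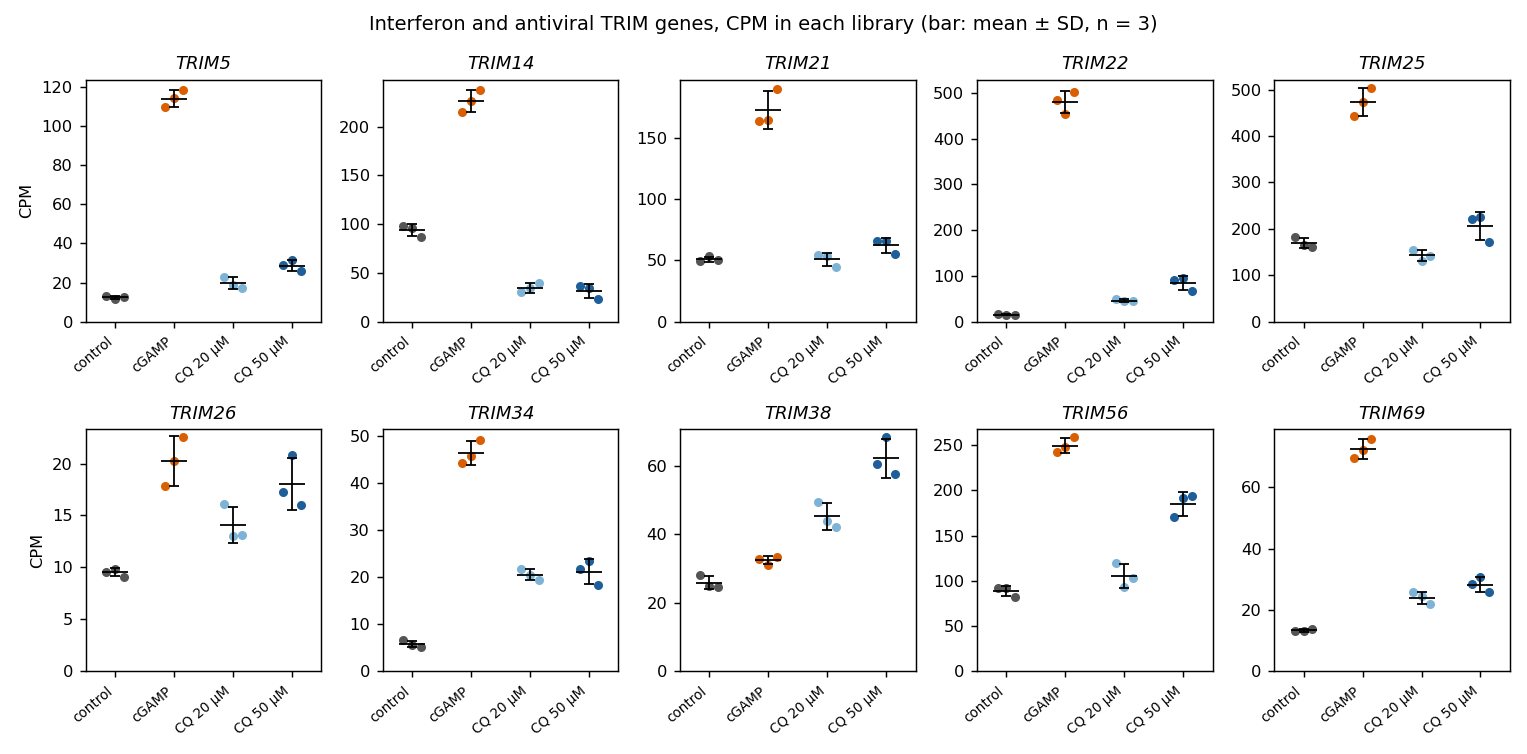
CPM of the 10 tested interferon and antiviral members by group, on axes that start at 0; points are libraries, and bars are the mean ± SD of 3. TRIM22 climbed from 14.4 to 480.2 CPM with cGAMP, TRIM14 dropped below its control level in both drug groups, and TRIM38 was highest in CQ50.

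TRIM14, an adaptor without a RING domain that acts with MAVS and cGAS (chr9:98069275-98119212, minus), went opposite ways with the 2 agents. It had 98.2, 96.3 and 86.7 CPM in control cells, 215, 227 and 237 with cGAMP, 29.9, 34.0 and 39.4 in CQ20, and 36.9, 34.1 and 22.9 in CQ50. Every cGAMP library was above and every drug library below the control range. Log2 changes were 1.27 ± 0.13 with cGAMP (2.41-fold, 8.21e-07), -1.44 ± 0.13 in CQ20 (2.72-fold lower, 1.12e-07) and -1.58 ± 0.13 in CQ50 (3.00-fold lower, 1.43e-08), and CQ50 differed from cGAMP by -2.86 (1.15e-11). The neighbour NANS, on the other strand, shares 7.72% of the TRIM14 exon bases, and the strand used in counting is not given in the sources used here. NANS had log2 changes of 0.22 (0.0841), -0.36 (0.0026) and -0.07 (0.49).

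TRIM25, the ligase that activates RIG-I (chr17:56836387-56914080, minus), and TRIM21, a cytosolic antibody receptor (chr11:4384897-4393696, minus), rose with cGAMP and little with the drug. TRIM25 had 182, 165 and 161 CPM in control cells, 444, 474 and 503 with cGAMP, 155, 131 and 142 in CQ20, and 222, 225 and 171 in CQ50. It rose by 1.48 ± 0.10 on the log2 scale with cGAMP (2.79-fold, 5.69e-09), and CQ50 was 0.53 above CQ20 (0.00056). Against control it was called lower in CQ20 (-0.25, 0.0466) and higher in CQ50 (0.28, 0.0218), where the libraries overlapped those of the control. The first of these calls was lost in 19 of 22 alternative analyses, with adjusted p from 0.0265 to 0.28 over them, and the second in 6. Without control replicate 2 or without control replicate 3 the CQ50 call was lost. TRIM21 had 49.6, 53.5 and 50.3 CPM in control cells, 164, 165 and 191 with cGAMP, 54.3, 53.7 and 45 in CQ20, and 66.1, 65.9 and 55.2 in CQ50. The cGAMP libraries stood far above all others (log2 change 1.76 ± 0.10, 3.39-fold, 1.55e-10). CQ20 was not called (0.981), and the CQ50 change was small (0.29, 0.0134).

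TRIM56, which has been linked to STING and cGAS ubiquitination (chr7:101085439-101097967, plus), rose by dose. It had 92.3, 92.1 and 82.0 CPM in control cells, 243, 248 and 259 with cGAMP, 120.1, 93.6 and 103 in CQ20, and 170.1, 191 and 194 in CQ50. On the log2 scale it changed by 1.49 ± 0.09 with cGAMP (2.81-fold, 1.16e-09), 0.25 ± 0.09 in CQ20 (0.0299) and 1.06 ± 0.09 in CQ50 (2.08-fold, 1.89e-08). The CQ20 call was lost without control replicate 3 and without CQ20 replicate 1. The step from CQ20 to CQ50 was 0.81 (3.14e-06).

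TRIM26 and TRIM38, both on chromosome 6, were the members of this list with the smallest rise with cGAMP. TRIM26 (chr6:30184455-30213427, minus) had 9.60, 9.89 and 9.11 CPM in control cells, 17.8, 20.2 and 22.6 with cGAMP, 16.1, 13.0 and 13.1 in CQ20, and 17.3, 20.8 and 16.0 in CQ50. Its log2 change was 1.08 ± 0.13 with cGAMP (5.07e-06), 0.56 ± 0.13 in CQ20 (0.00122) and 0.92 ± 0.13 in CQ50 (5.09e-06), and CQ50 against cGAMP was not called. TRIM38, known as a brake on Toll-like receptor and interferon signalling (chr6:25962802-25991226, plus), had its highest level in CQ50. It had 28.1, 24.8 and 24.7 CPM in control cells, 32.9, 31.1 and 33.3 with cGAMP, 49.5, 43.8 and 42.2 in CQ20, and 60.4, 68.3 and 57.6 in CQ50. No groups overlapped, and CQ50 was 0.94 above cGAMP on the log2 scale (5.84e-08). Against control the change was 0.33 ± 0.09 with cGAMP (0.0161, lost in 8 of 22 alternatives), 0.80 ± 0.09 in CQ20 (1.06e-06), and CQ50 was 2.40-fold above control (1.58e-09).

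Within groups the interferon and antiviral members moved together by library. CQ50 replicate 3 was the lowest of its group for 9 of the 10 tested members, TRIM56 being the exception, and cGAMP replicate 3 was the highest for 10 of 10. Without CQ50 replicate 3 the counts in CQ50 were again 9 higher and 1 lower, with a median log2 change of 1.15. Over the 22 alternatives the list had 9 to 10 members higher and 0 lower with cGAMP, 6 to 7 higher and 1 to 2 lower in CQ20, and 7 to 9 higher and 1 lower in CQ50.

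The 11 members with roles in inflammatory signalling and autophagy were mixed. With cGAMP TRIM31 and TRIM44 rose and TRIM27, TRIM32 and TRIM65 fell. In CQ20 TRIM8, TRIM16 and TRIM23 rose and TRIM13, TRIM27, TRIM44 and TRIM65 fell, and in CQ50 TRIM8, TRIM16, TRIM23 and TRIM31 rose and TRIM13, TRIM27, TRIM65 and TRIM68 fell. The TRIM68 call was lost in 15 of 22 alternatives, among them DESeq2, RLE scaling and those without CQ50 replicate 1, 2 or 3. Of the list, 45.5%, 63.6% and 72.7% were called in that order, against 23.3%, 55.1% and 66.9% of all genes. The list's median log2 change was -0.22 with cGAMP, 0.04 in CQ20 and 0.03 in CQ50.

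TRIM31, a ligase of MAVS and NLRP3 (chr6:30102897-30113106, minus), went from almost no reads to a clear level with cGAMP. Its counts were 1, 0 and 0 in the control libraries, 125, 156 and 176 with cGAMP, 1, 3 and 1 in CQ20, and 1, 3 and 3 in CQ50. With 1 control count in all, from replicate 1, the ratio of scaled counts was 476 for cGAMP (95% counting interval 85.0 to 18837) and 7.65 for CQ50 (0.983 to 345). Both were called (1.36e-10 and 0.0351), the CQ50 call resting on 7 counts and lost in 9 of 22 alternatives, among them those without control replicate 2 and without control replicate 3. Such intervals cover counting error only.

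TRIM16, which marks damaged lysosomes for autophagy together with galectins (chr17:15627960-15684311, minus), rose with the drug. It had 8.94, 9.28 and 8.59 CPM in control cells, 6.78, 6.51 and 7.08 with cGAMP, 17.3, 13.3 and 8.25 in CQ20, and 31.4, 32.6 and 42.2 in CQ50. CQ50 stood above all other groups, and CQ20 overlapped the control. The log2 change was 1.98 ± 0.18 in CQ50 (3.96-fold, 4.02e-08), 0.53 ± 0.19 in CQ20 (0.0266), and 1.46 between the doses (6.95e-06). The CQ20 call was lost without control replicate 1, 2 or 3 and without CQ20 replicate 1 or 2. TRIM16 went from rank 23 per length in control cells to rank 7 in CQ50.

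TRIM8, an activator of NF-kB signalling through TAK1, had 31.9, 32.7 and 34.0 CPM in control cells, 32.0, 35.9 and 39.6 with cGAMP, 55.8, 45.5 and 37.5 in CQ20, and 72.4, 77.9 and 72.2 in CQ50. It rose by 0.49 (0.00161) and 1.17 ± 0.11 (2.26-fold, 8.1e-08) on the log2 scale in CQ20 and CQ50 and was not called with cGAMP. AL391121.1, a transcript of 567 summed counts on the other strand, shares 14.14% of the TRIM8 exon bases and rose by 1.01 in CQ50 (0.00131). TRIM23, which carries an ARF-like GTPase domain, rose by 0.78 in CQ20 and 0.66 in CQ50. TRIM13, a ligase of the endoplasmic reticulum membrane, fell by 0.46 and 0.53.

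TRIM27 and TRIM65 were called lower with all 3 treatments, the cGAMP calls being lost in 9 and 17 of 22 alternatives. TRIM27, a negative regulator of innate signalling, had means of 35.2 ± 3.22 CPM in control cells, 28.1 ± 2.30 with cGAMP, 18.6 ± 1.83 in CQ20 and 16.7 ± 0.677 in CQ50, with log2 changes of -0.33 (0.0198), -0.92 (5.84e-07) and -1.07 ± 0.10 (2.11-fold lower, 4.17e-08). TRIM65, which ubiquitinates MDA5, changed by -0.35, -0.69 and -0.66. TRIM44, a RING-less relative that stabilises other TRIM proteins, had means of 100.6 CPM in control cells, 146 with cGAMP, 86.6 in CQ20 and 102 in CQ50. It rose by 0.54 with cGAMP (0.000109), fell by 0.22 in CQ20 (0.0336) and was not called in CQ50. The fall in CQ20 was lost in 16 of 22 alternatives, among them RLE scaling and those without CQ20 replicate 1, 2 or 3. TRIM32 fell by 0.32 with cGAMP (0.047), a call lost in 20 of 22 alternatives.

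**Figure D4:**
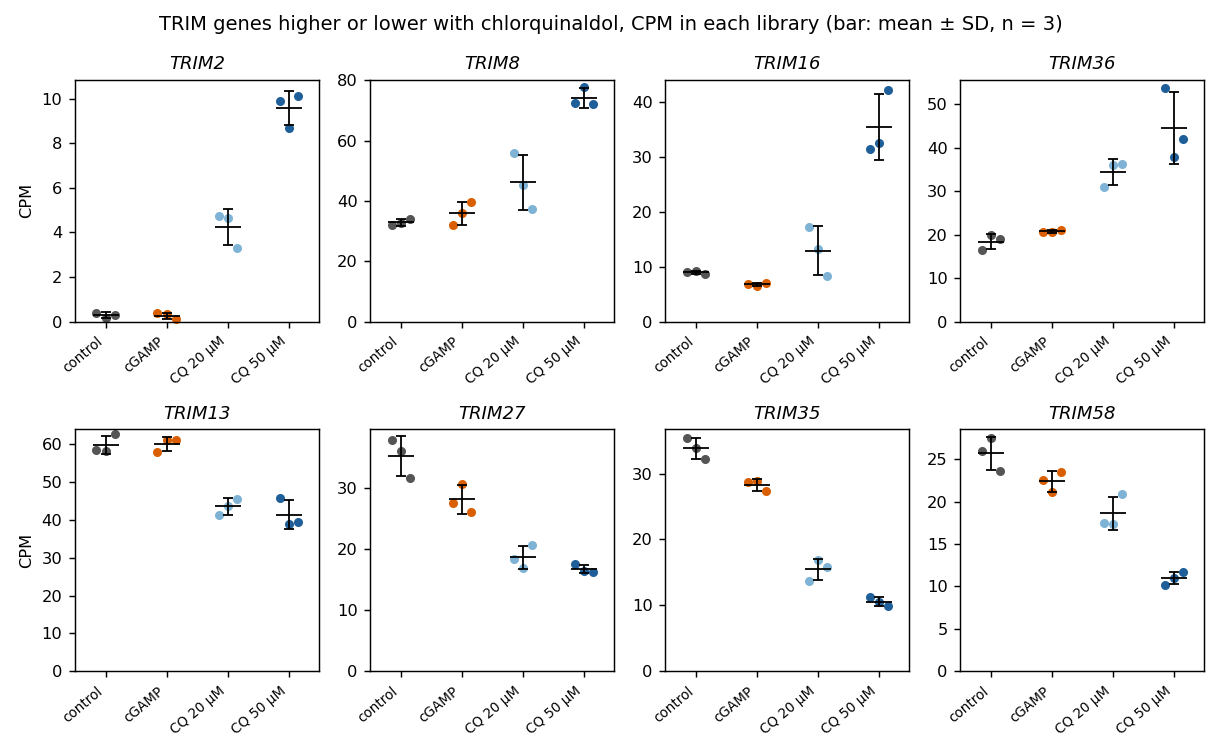
CPM by group of 8 members that moved with chlorquinaldol, on axes that start at 0; points are libraries, and bars are the mean ± SD of 3. TRIM2 went from 0.289 CPM in control cells to 9.59 CPM in CQ50, and TRIM35 from 33.8 to 10.5 CPM.

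Among the NHL-repeat members, TRIM2, a ligase of neurofilament light chain best known from neurons (ENSG00000109654, chr4:153152342-153339320, plus), had the largest rise with the drug. It had 0.402, 0.154 and 0.311 CPM in control cells, 0.362, 0.320 and 0.109 with cGAMP, 4.72, 4.67 and 3.30 in CQ20, and 9.92, 8.71 and 10.1 in CQ50. The groups did not overlap except control and cGAMP. Its log2 changes were 3.84 ± 0.30 in CQ20 (14.3-fold, 1.41e-08), 5.02 ± 0.27 in CQ50 (32.4-fold, 5.42e-11) and 1.18 between the doses (7.15e-05). The control estimate rests on 17.36 summed counts against 516.11 in CQ50, and the level there was still low per length, at 1.65 ± 0.342 FPKM. On the log2(FPKM + 1) scale, which compresses low levels, the changes were 0.65 in CQ20 and 1.28 in CQ50. TRIM3 and TRIM32, the latter counted in both this list and the one before, fell with cGAMP, by 0.81 (0.0414, lost in 13 of 22 alternatives) and 0.32, and were not called with the drug. TRIM71, a stem-cell regulator and target of let-7, was not tested and had 5, 2 and 3 counts in control cells, 3, 2 and 3 with cGAMP, 6, 9 and 6 in CQ20, and 25, 28 and 6 in CQ50. The higher CQ50 counts were those of replicates 1 and 2, and replicate 3 lay within the CQ20 range.

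The 4 chromatin members changed little. TRIM28, the corepressor that KRAB zinc-finger proteins recruit, had 231, 237 and 223 CPM in control cells, 178, 194 and 177 with cGAMP, 288, 259 and 255 in CQ20, and 315, 331 and 229 in CQ50. It was called lower with cGAMP (log2 change -0.34, 0.0329, lost in 14 of 22 alternatives). In CQ50 it was called higher (0.34, 0.0108, lost in 4 of 22), and replicate 3 fell within the control range. The CQ50 and cGAMP groups differed by 0.67 (3.19e-05). TRIM33, a ligase of SMAD4, rose by 0.29 in CQ50 (0.00243), a call lost in the 3 analyses on the FPKM scale. There the control (10.79 to 14.01 FPKM) and CQ50 libraries (10.95 to 15.68 FPKM) overlapped. TRIM24, a nuclear receptor cofactor at 69.5 ± 1.85 CPM in control cells, and TRIM66 were not called in any of the 5 comparisons.

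Of the cytoskeletal and muscle members, TRIM36, which binds microtubules, had 16.4, 19.8 and 19.0 CPM in control cells, 20.7, 20.6 and 21.2 with cGAMP, 30.9, 36.0 and 36.2 in CQ20, and 53.8, 37.9 and 42.0 in CQ50. Both drug groups lay above the control and cGAMP libraries, with log2 changes of 0.90 ± 0.12 (6.04e-06) and 1.28 ± 0.12 (2.42-fold, 4.23e-08). TRIM9 was called in CQ20, at 0.79 (0.0156), and not in the other comparisons, CQ50 against CQ20 among them. TRIM46 and TRIM72 were not called against control. TRIM63, the muscle ligase MuRF1, was not tested: it had 3, 8 and 8 counts in control cells, 0, 0 and 1 with cGAMP, 8, 4 and 12 in CQ20, and 2, 0 and 1 in CQ50. The control-to-cGAMP ratio of its scaled counts was 18.2 (95% counting interval 2.90 to 758).

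Of the remaining 16 members, 14 were tested. With cGAMP 0 rose and 3 fell, in CQ20 2 rose and 5 fell, and in CQ50 4 rose and 7 fell. The shares called were 21.4%, 50% and 78.6%, against 23.3%, 55.1% and 66.9% of all genes. TRIM35, reported to act on IRF7 and on pyruvate kinase, had the largest change of these in CQ50 against control. It had 35.4, 33.8 and 32.2 CPM in control cells, 28.7, 28.9 and 27.3 with cGAMP, 13.8, 16.9 and 15.8 in CQ20, and 11.2, 10.5 and 9.85 in CQ50, with no overlap between groups. Relative to control it changed by -1.13 ± 0.09 in CQ20 (2.19-fold lower, 2.62e-08) and -1.68 ± 0.10 in CQ50 (3.21-fold lower, 9.29e-11). With cGAMP it was -0.26 (0.042), a call lost in 21 of 22 alternatives. TRIM58, an erythroid ligase of dynein, had 26.0, 27.5 and 23.6 CPM in control cells, 17.5, 17.4 and 20.9 in CQ20, and 10.2, 11 and 11.7 in CQ50, and changed by -0.46 (0.000651) and -1.23 ± 0.10 (2.34-fold lower, 1.17e-08). TRIM59 changed by -0.28 (0.00842) and -0.80 (2.59e-07) in CQ20 and CQ50. Its neighbour SMC4, which shares 19.85% of the TRIM59 exon bases on the other strand, had log2 changes of -0.07 (0.519) and -0.49 (9.79e-05) there.

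The smaller changes of this group ran as follows. TRIM11 fell by 0.43 in CQ20 and 0.45 in CQ50, and TRIM37, a centrosomal and peroxisomal ligase mutated in mulibrey nanism, by 0.34 and 0.61. The TRIM37 call in CQ20 was lost in 15 of 22 alternatives, among them DESeq2 and those without CQ20 replicate 1, 2 or 3. TRIM45 fell by 0.52 with cGAMP and by 0.98 in CQ50, and CQ50 was 2.25-fold below CQ20 (log2 change -1.17, 2.57e-05). TRIM4, which ubiquitinates RIG-I, fell by 0.26 with cGAMP and 0.27 in CQ50. The cGAMP calls of TRIM45 and TRIM4 were lost in 9 and 18 of 22 alternatives. In the other direction TRIM7, a partner of glycogenin, rose by 1.29 in CQ20 (0.00496) and 0.92 in CQ50 (0.0357), from 0.340 ± 0.0261 CPM to 0.842 ± 0.218 and 0.650 ± 0.102 CPM, so these changes rest on few reads, and the CQ50 call was lost in 7 of 22 alternatives. TRIM52 rose by 0.41 and 0.58, though 28.47% of its exon bases are shared with a transcript on the other strand. Its CQ20 call was lost in 10 of 22 alternatives, among them DESeq2 and those without control replicate 1, 2 or 3 and without CQ20 replicate 1 or 3. TRIM39 rose by 0.59 in CQ50 (0.000813), from 5.62 ± 0.465 to 8.45 ± 0.183 CPM. The call was lost in the 3 FPKM analyses, and the control (1.73 to 3.2 FPKM) and CQ50 libraries (2.73 to 3.12 FPKM) overlapped. HCG18, on the other strand, shares 12.23% of the TRIM39 exon bases and rose by 0.40 in CQ50 (0.00989). TRIM41 rose by 0.24 in CQ50 (0.0364, lost in 6 of 22 alternatives), and TRIM17, TRIM61 and TRIM73 were not called in any comparison. TRIM73 and its near-identical copy TRIM74 may share reads, and TRIM74, not tested, had 17.03, 12.64, 16.5 and 19.96 summed counts in control, cGAMP, CQ20 and CQ50. TRIM47, also not tested, had 2, 0 and 0 counts in control cells and 14, 11.85 and 0 in CQ50. The CQ50-to-control ratio of its scaled counts was 14.2 (95% counting interval 3.56 to 123.5), which comes from CQ50 replicates 1 and 2.

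Because the comparisons with control share their control libraries, the calls set side by side here are a description and no separate result. Of all tested genes, 11.6% rose and 11.8% fell with cGAMP, 27.1% and 28% in CQ20, and 32.2% and 34.7% in CQ50. The share of all genes with each joint pattern was not counted. TRIM5, TRIM22, TRIM26, TRIM34, TRIM38, TRIM56 and TRIM69 were called higher with each treatment. TRIM27, TRIM35 and TRIM65 were called lower with each, the cGAMP calls of these 3 being lost in 9, 21 and 17 of 22 alternatives. The members TRIM2, TRIM7, TRIM8, TRIM16, TRIM23, TRIM36 and TRIM52 rose at both drug doses and were not called with cGAMP, and TRIM11, TRIM13, TRIM37, TRIM58 and TRIM59 fell at both doses and were not called with cGAMP. A call in one comparison and none in another does not show a difference between them, for which the direct comparisons follow.

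The dose step was tested by comparing CQ50 with CQ20, in the fit that also held the control and cGAMP libraries. Of the 45 tested members, 15 were higher at 50 μM and 5 lower, 44.4%, where 38.1% of all genes were called (19.1% higher and 19% lower). Only 2 members differed by at least 2-fold upward, TRIM2 and TRIM16, and only TRIM45 downward, with 4.56% and 3.34% of all genes that far apart. Of the interferon and antiviral members 8 of 10 were higher at 50 μM, with a median log2 difference of 0.41 against -0.02 for all genes, and TRIM14 and TRIM34 were not called. Over the 22 alternatives this count ran from 3 (on the FPKM scale) to 8, with 0 lower in each, and it was 5 without CQ20 replicate 3, without CQ50 replicate 2 or with the CQ20 and CQ50 libraries fitted alone. It was 7 without control replicate 1, 2 or 3. The TRIM69 call (log2 difference 0.24, 0.0439) was lost in each of these 6 analyses and in 16 of 22 in all. Over all members the FPKM scale gave 6 higher against 4 lower. TRIM8 was 0.68 higher (0.000142) and TRIM36 0.37 higher (0.0151). TRIM35 was 0.55 lower (log2 difference -0.55, 0.000301), TRIM58 differed by -0.76 (2.31e-05) and TRIM59 by -0.52 (0.000159).

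The direct comparison of CQ50 with cGAMP asked whether the drug and the positive control differed in the family. Of the tested members 15 were higher and 19 lower in CQ50, 75.6%, where 66.7% of all genes were called (32% higher and 34.7% lower). At least 2-fold differences were found in 6 members upward and 10 downward, with 14.1% and 13.1% of all genes that far apart. Of the interferon and antiviral members 8 were lower, TRIM38 was higher and TRIM26 was not called, with a median log2 difference of -1.28 against -0.04 for all genes. The counts were 8 lower and 1 higher in each of the 22 alternatives too. Within this list the difference was -2.86 for TRIM14, -2.51 for TRIM22, -1.99 for TRIM5, -1.47 for TRIM21, -1.36 for TRIM69, -1.20 for TRIM25, -1.13 for TRIM34 and -0.43 for TRIM56. Outside it TRIM31 differed by -5.89, on 7 summed counts in CQ50. Upward, TRIM2 differed by 5.14, TRIM16 by 2.38, TRIM7 by 1.98, TRIM36 by 1.10, TRIM8 by 1.05 and TRIM3 by 1.02. With cGAMP TRIM2 had 15 summed counts and TRIM7 9.04, so their differences rest on few reads. That of TRIM2 ran from 1.23 to 5.43 over the 22 alternatives.

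**Figure D5:**
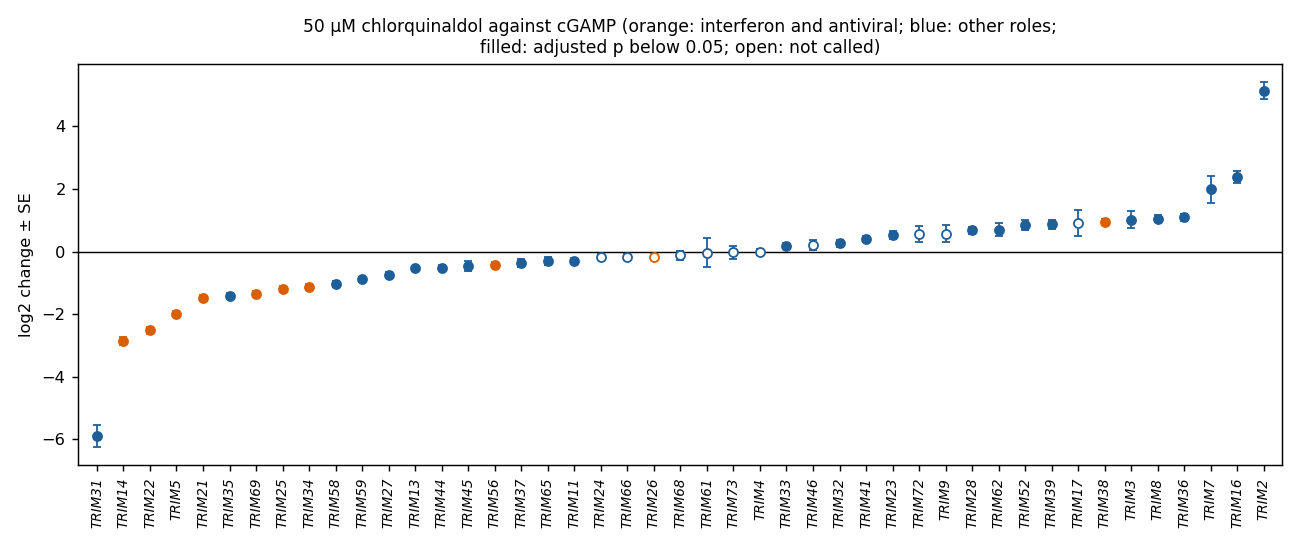
Log2 difference of CQ50 against cGAMP for the 45 tested members in order of size, with SE bars; orange marks interferon and antiviral members, and open points did not pass the test. The orange points lie mostly on the left, below 0, with TRIM38 at 0.94 on the right, while TRIM2 is highest at 5.14.

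Partners and targets of TRIM ligases were read from a list of 34 genes, all tested. With cGAMP 10 rose and 4 fell, where 11.6% and 11.8% of all genes did, in CQ20 14 rose and 6 fell (27.1% and 28% of all genes), and in CQ50 18 rose and 9 fell (32.2% and 34.7%). Among the RNA sensors and the factors downstream, RIGI, which TRIM25 ubiquitinates, went from 6.49 ± 0.740 CPM in control cells to 271 ± 10.3 with cGAMP, 20.5 ± 1.41 in CQ20 and 36.5 ± 7.75 in CQ50 (log2 changes 5.38, 1.66 and 2.49). IFIH1, which encodes MDA5, the target of TRIM65, went from 15.6 ± 1.39 to 286 ± 16.8, 29.7 ± 4.21 and 81.8 ± 9.79 CPM. ZC3HAV1, the zinc-finger antiviral protein that works with TRIM25, had 86.3 ± 4.64 CPM in control cells, 275 ± 16.0 with cGAMP, 65.1 ± 7.25 in CQ20 and 71.3 ± 3.12 in CQ50, with log2 changes of 1.67, -0.41 and -0.28. RIGI and IFIH1 had the same order of group means as TRIM22, and ZC3HAV1 rose with cGAMP and fell at both drug doses, as TRIM14 did. TBK1 and IRF7 were called higher with each treatment, while MAVS, on which TRIM14 and TRIM31 act, was called lower with each.

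STING1, the receptor of cGAMP, was not called with cGAMP and fell by 0.50 in CQ20 and by 1.41 in CQ50 on the log2 scale. Its libraries had 239, 259 and 239 CPM in control cells and 92.1, 101 and 85.1 in CQ50. SQSTM1, the autophagy receptor p62 that acts with TRIM16, went from 183 ± 7.03 CPM in control cells to 303 ± 82.1 in CQ20 and 1157 ± 115 in CQ50, with log2 changes of 0.73 and 2.66. Against control BECN1 was called lower in CQ50 only, and ULK1 lower with cGAMP and higher at both drug doses. USP15, a deubiquitinase of TRIM25, rose by 1.12 with cGAMP and by 0.34 in CQ50. The TRIM28 partner SETDB1 was called in CQ20, at -0.22, and not with cGAMP or in CQ50. CBX5, a heterochromatin protein that TRIM28 recruits, fell by 0.29 with cGAMP and 0.55 in CQ50.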

How the data were processed

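The 12 libraries were read from a table of estimated counts and a table of FPKM. The authors deposited estimated counts and FPKM per gene. The submitters' processing notes name RSEM, GRCh38 and DESeq2 1.26.0, without the step each served. The annotation, the RSEM version and the strand are not given in the sources used here. Per the labels, mRNA was enriched by oligo(dT) and sequenced on DNBSEQ. Of the deposited values above 0, 42.14% were not whole, and all were rounded. The 326 entries that name no gene (0.182 to 0.29% of counts) were left out.

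The members, role lists and partners were chosen with earlier results of these data known, and the lists were written from general knowledge. Counts were filtered (filterByExpr, minimum count 10), scaled by TMM (factors 0.9048 to 1.0606) and modelled by quasi-likelihood (edgeR 4.0.16, R 4.3.3), all 12 libraries and 4 groups together, with 8 residual and 8.99 prior degrees of freedom. Adjusted p-values are Benjamini-Hochberg over the 16628 tested genes, called below 0.05. An exact test of 3 libraries against 3 cannot go below p = 0.1, and the model reaches smaller values by pooling the spread over genes. The scalings of TMM, RLE and DESeq2 centre on the bulk of genes, while the FPKM values were used without such scaling.

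The rule named members called with at least a 2-fold change against control and at least 1 CPM in the higher group, a panel (TRIM5, TRIM6, TRIM8, TRIM13, TRIM14, TRIM16, TRIM21 to TRIM28, TRIM31 to TRIM34, TRIM38, TRIM56, TRIM65 and TRIM69), and untested members with at least 10 counts in a group. Values of other members were chosen after they were seen. Genes with at most 3 counts in a group are given as scaled ratios with an exact 95% counting interval. Alternatives were DESeq2 1.42.0, RLE scaling, a floor of 1 CPM in 3 libraries, no filter, a replicate block, a fit of the compared groups alone, limma 3.58.1 on log2(FPKM + 1), log2(FPKM + 0.1) and all genes with FPKM above 0, adjusted p below 0.01, and each library left out. Positions are from GENCODE 29 on GRCh38, sequences from RefSeq (GRCh38.p14).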

Additional observations from a re-analysis of the deposited data

How the results depend on the processing

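Of 125 pairs of a named member and a comparison, 95 were called. Over the 22 alternatives these gave 2089 values, of which 1861 kept the call, 228 lost it and 0 changed sign. Of 657 values of pairs not called, 12 passed the threshold.

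Falls with cGAMP moved most. They went from 8 members to 2 by DESeq2, 5 with RLE scaling, 3 with no filter and 2 at 1 CPM or more in 3 libraries. There were 5 with a replicate block, 5 on log2(FPKM + 1), 4 on log2(FPKM + 0.1) and 0 over all genes with FPKM above 0. An adjusted p below 0.01 gave 0, while a fit of the compared groups alone gave 9. All genes called with cGAMP went from 3875 to 2038 over all FPKM genes and 2203 at the stricter threshold. Falls in CQ20 went from 11 to 7 with no filter and 7 over all FPKM genes, and rises in CQ50 from 21 to 13 in each of the 3 FPKM analyses. Members higher in CQ50 than in CQ20 went from 15 to 6 in each FPKM analysis and 9 at the stricter threshold, and members higher in CQ50 than with cGAMP from 15 to 9 over all FPKM genes. The cause was not tested. On the FPKM scale the median of all genes shifted by -0.124 (pseudocount 1) and -0.139 (pseudocount 0.1) for CQ50 against control, and by -0.109 and -0.124 for CQ50 against CQ20.

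With 1 library left out, members higher and lower ranged from 11 to 12 and 0 to 4 with cGAMP, 12 to 18 and 7 to 11 in CQ20, 19 to 23 and 10 to 12 in CQ50, 12 to 17 and 4 to 6 for CQ50 against CQ20, and 15 to 18 and 17 to 19 for CQ50 against cGAMP. All genes called ranged from 2676 to 3926, 8161 to 9377, 10488 to 11359, 5154 to 6437 and 10357 to 11257 in the same order.

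The groups share replicate numbers. Over 18 same-numbered pairs the deviations from group means correlated at -0.113 to 0.0671, with 0 pairs over 0.1. Low correlations cannot show whether same-numbered libraries were handled together, which the labels do not say. A replicate block gave 12 higher and 5 lower members with cGAMP, 15 and 10 in CQ20, 21 and 12 in CQ50, 14 and 5 for CQ50 against CQ20 and 15 and 19 for CQ50 against cGAMP, and 3619, 8964, 10978, 6095 and 10948 genes called in all. Depth limits TRIM31, TRIM47, TRIM63, TRIM71 and the control level of TRIM2, which rest on few reads.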

Other observations

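A list of 4 TRIM proteins with other names, which need not be complete, was also read. PML, the scaffold of nuclear bodies, had 48.2, 47.4 and 42.5 CPM in control cells, 182, 198 and 225 with cGAMP, 57.4, 48.0 and 52.0 in CQ20, and 74.4, 78.2 and 54.3 in CQ50. It rose by 2.13 on the log2 scale with cGAMP and by 0.58 in CQ50. MEFV, which encodes pyrin, rose by 0.32 with cGAMP and fell by 0.41 in CQ50. MID1, which binds microtubules, fell by 0.86 in CQ50, and MID2 was not called against control.

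Chromosome 11 holds 9 members (TRIM3, TRIM5, TRIM6, TRIM21, TRIM22, TRIM34, TRIM44, TRIM66 and TRIM68) and chromosome 6 holds 5 (TRIM26, TRIM27, TRIM31, TRIM38 and TRIM39). With cGAMP TRIM5, TRIM21, TRIM22, TRIM34 and TRIM44 of the first set rose and TRIM3 fell, while TRIM6 was not tested. Of the second, TRIM26, TRIM31 and TRIM38 rose and TRIM27 fell. The calls of TRIM3, TRIM27 and TRIM38 were lost in 13, 9 and 8 of 22 alternatives. Of all tested genes 11.6% rose and 11.8% fell with cGAMP, and a link with position was not tested. TRIM62, at 3.29 ± 0.560 CPM in control cells, was called only for CQ50 against cGAMP, at 0.69 (adjusted p = 0.00702, edgeR).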
